A study of Mus musculus with 18 samples.

Results

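Named liver enzymes whose expression in mice depends on sex and on growth hormone were followed in whole-liver RNA-seq after deletion of Hira in hepatocytes. The set comprised 8 of the 55421 genes in the count table and was chosen by gene name: Hsd3b5, Cyp2d9, Cyp4a12a, Cyp4a12b and Elovl3 are known as male-biased, and Cyp2b13, Sult2a1 and Sult3a1 as female-biased. All 8 were among the 23512 genes with at least 10 counts over all mice that were tested. In HIRA KO males the male-biased Hsd3b5 and Elovl3 fell and the female-biased Cyp2b13 rose to the range of control females. In HIRA KO females the male-biased Cyp2d9 rose and the female-biased Sult2a1 and Sult3a1 fell.

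The 18 mice formed 6 groups of 3 on a C57BL/6 background, 3 groups per sex. HIRA KO mice were HIRA fl/fl and received AAV8 Tbg-Cre, in which the hepatocyte promoter Tbg drives Cre recombinase. HIRA fl/fl AAV ctl mice had the same floxed alleles and received AAV8 Tbg-MCS, which lacks Cre, and WT AAV Tbg-Cre mice were wildtype and received the Cre virus. All groups share the AAV8 vector, its injection at an age of 6 months and sampling at 18 months. Other liver cells keep Hira, and in bulk RNA fewer cells of a type cannot be told apart from less RNA per cell. Control here means both control types pooled, 6 mice per sex.

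The liver of mice is a sexually dimorphic organ. The pituitary releases growth hormone in pulses in males and more continuously in females, hepatocytes receive it through the receptor GHR and the kinase JAK2, and the transcription factor STAT5B carries the signal to the genome. Repressors such as BCL6, higher in males, and CUX2, higher in females, help to keep each sex's programme, and androgens and oestrogens act largely through the pituitary. The genes studied here are among its classic outputs. HSD3B5 is a 3-ketosteroid reductase of the male liver, CYP2D9 a steroid hydroxylase, CYP4A12A and CYP4A12B hydroxylate arachidonic and other fatty acids, and ELOVL3 elongates very long chain fatty acids. CYP2B13 is a female liver cytochrome P450, SULT2A1 transfers sulphate to hydroxysteroids and bile acids, and SULT3A1 is a sulphotransferase of the female liver.

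The total counts were between 15210023 and 24389407 per mouse (median 20773657). Levels are given as CPM, the counts scaled to the library total times edgeR's TMM factor, and as FPKM where 2 genes are compared. A gene is called in a comparison when edgeR's quasi-likelihood test gave a Benjamini-Hochberg adjusted p below 0.05 and an absolute log2 fold change above 1. The labels were checked first. The paper reports efficient loss of HIRA protein by western blot of livers of both sexes. The check here used RNA counted over the whole gene, and protein was not measured in these data. Hira was at 3.71, 3.00 and 9.42 CPM in HIRA KO males 1, 2 and 3, and between 3.59 and 7.96 CPM (median 6.98) in control males. It was between 3.02 and 4.28 CPM in HIRA KO females and between 4.43 and 7.62 CPM (median 6.15) in control females. Hira was not called in males (log2 fold change −0.25, adjusted p = 0.58 in edgeR) or in females (−0.70, adjusted p = 0.266). The library labelled HIRA KO male replicate 3 lay above every control male, and HIRA KO male 1 lay inside their range. Without replicate 3 the log2 fold change in males was −0.92 (adjusted p = 0.0328), below the fold threshold for a call. The values of the 8 enzymes in HIRA KO males are therefore also given without it, and for the other genes named in males it is said where the call was lost without it. The Y-linked genes matched the labelled sexes, and Ddx3y was at least 59.7 CPM in all 9 males and at most 0.470 CPM in all 9 females. The HIRA KO male libraries held few genes at low counts, with 0.125 to 0.153 genes at 4 to 9 counts for each gene at 10 to 99 counts, against 0.402 to 0.552 in the other 15 mice. The part of this in the results for HIRA KO males was not tested.

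All 8 genes are protein coding, and their positions are given in mm10. Hsd3b5 (ENSMUSG00000038092.6) is at chr3:98618634-98630252 on the minus strand with 3 exons, and overlaps Zfp697 on the plus strand. Cyp2d9 (ENSMUSG00000068086.6) is at chr15:82433437-82456845 on the plus strand, and has 9 exons in the transcript used here. Cyp4a12a (ENSMUSG00000066071.6) at chr4:115299046-115332815 and Cyp4a12b (ENSMUSG00000078597.2) at chr4:115411624-115439034 are neighbours on the plus strand with 12 exons each. Elovl3 (ENSMUSG00000038754.5) is at chr19:46131897-46135694 on the plus strand with 4 exons, and overlaps Pitx3 on the other strand. Cyp2b13 (ENSMUSG00000040583.8) is at chr7:26061497-26096197 on the plus strand with 9 exons, and Sult2a1 (ENSMUSG00000078798.4) at chr7:13796246-13837409 on the minus strand with 6 exons. Sult3a1 (ENSMUSG00000069668.4) is at chr10:33857721-33879532 on the plus strand with 7 exons. Cyp2d9 overlaps 3 pseudogenes (Gm46501, Gm49421 and Gm49419) and the miRNA gene Gm27622, and Cyp4a12b, Cyp2b13, Sult2a1 and Sult3a1 overlap 1 processed pseudogene each. Since the sources used here do not say whether counting used the strand, reads of overlapping genes cannot be assigned with certainty.

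Near-identical copies limit how well some of these genes can be told apart. Of the 100-base windows of its transcript, 35.8% for Cyp4a12a and 36.2% for Cyp4a12b also occur in the other gene. The share was 11.4% for Sult2a1 (with Sult2a2 and Sult2a5), 9.9% for Cyp2d9 (with other Cyp2d genes), 9.3% for Cyp2b13 (mostly with Gm45225) and 7.8% for Hsd3b5 (with Gm10681, Hsd3b4 and Gm4450). No window of Elovl3 or Sult3a1 was shared. The coding sequences of Cyp4a12a and Cyp4a12b have 1524 bases each and differ at 23, an identity of 98.5%. The stretch of coding bases 644 to 763, read from the mm10 reference and shown because it holds 8 of these differences, lets reads be assigned to one gene or the other. Capitals mark the differing bases:
Cyp4a12a: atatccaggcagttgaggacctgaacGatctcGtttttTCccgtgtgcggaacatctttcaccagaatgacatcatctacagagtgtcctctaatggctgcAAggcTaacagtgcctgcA
Cyp4a12b: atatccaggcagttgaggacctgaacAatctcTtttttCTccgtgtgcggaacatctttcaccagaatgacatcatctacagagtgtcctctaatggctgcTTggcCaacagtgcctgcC

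RefSeq promoters (GRCm38.p6, 250 bases before to 50 after the start) were found for 4 of the 8 genes, Hsd3b5, Cyp2d9, Cyp2b13 and Sult3a1. The RefSeq start lay 2 bases from the annotated gene start for Cyp2b13 and 1 base for Sult3a1, but 15282 bases for Hsd3b5 and 18940 bases for Cyp2d9. The promoters of Cyp2b13 and Sult3a1 are shown because these female-biased genes moved in opposite directions, Cyp2b13 up in HIRA KO males and Sult3a1 down in HIRA KO females. The letters TTCNNNGAA, the core of the site STAT5 is known to bind, read the same on both strands. They occur in 8.3% of the 32851 promoters of the table, and in 1 of these 4, that of Sult3a1, where the match starts 109 bases before the start site and is in capitals. The plus strand of chr7:26061245-26061544 (Cyp2b13) and of chr10:33857472-33857771 (Sult3a1) reads:
Cyp2b13: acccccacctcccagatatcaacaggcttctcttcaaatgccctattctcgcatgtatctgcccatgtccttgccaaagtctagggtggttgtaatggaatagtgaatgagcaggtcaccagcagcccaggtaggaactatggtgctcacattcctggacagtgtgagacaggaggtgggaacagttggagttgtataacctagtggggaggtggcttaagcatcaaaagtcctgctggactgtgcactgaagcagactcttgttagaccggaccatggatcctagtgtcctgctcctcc
Sult3a1: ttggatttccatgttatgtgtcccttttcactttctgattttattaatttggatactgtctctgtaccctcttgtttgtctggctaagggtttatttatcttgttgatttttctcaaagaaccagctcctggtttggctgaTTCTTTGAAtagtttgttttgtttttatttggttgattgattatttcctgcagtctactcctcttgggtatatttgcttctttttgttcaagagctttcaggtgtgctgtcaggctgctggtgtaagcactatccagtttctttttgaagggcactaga

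In control livers all 8 enzymes differed between the sexes in the known direction, each with non-overlapping ranges between the 6 males and the 6 females. All 8 were called in this comparison, against 1.86% of all genes tested, and the log2 fold change of males over females lay between 6.25 (Cyp2d9) and 8.84 (Cyp4a12a) for the male-biased genes. For the female-biased genes it was −7.77 for Cyp2b13, −7.54 for Sult3a1 and −12.85 for Sult2a1. Per length, the highest mean in control males was that of Cyp2d9 with 727 FPKM, followed by Elovl3 with 187 FPKM, Cyp4a12a with 81.7, Hsd3b5 with 69.6 and Cyp4a12b with 27.2 FPKM. In that order only Cyp2d9 was separated from its neighbour by the ranges of the mice, 490 to 1000 FPKM against 112 to 274 FPKM for Elovl3. Elovl3 and Cyp4a12a shared FPKM values between 112 and 116, and the range of Hsd3b5 (7.5 to 158 FPKM) overlapped those of both Cyp4a12 genes. Cyp4a12a (36.1 to 116 FPKM) and Cyp4a12b (10.5 to 41.5 FPKM) shared little of their ranges. In control females Sult2a1 led with 896 FPKM, ahead of Cyp2b13 with 106 FPKM, Sult3a1 with 62.1 and Cyp2d9 with 32.9 FPKM. The range of Sult2a1 (729 to 1060 FPKM) lay above that of Cyp2b13 (13.7 to 170 FPKM), which overlapped those of Sult3a1 and Cyp2d9.

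**Figure D1:**
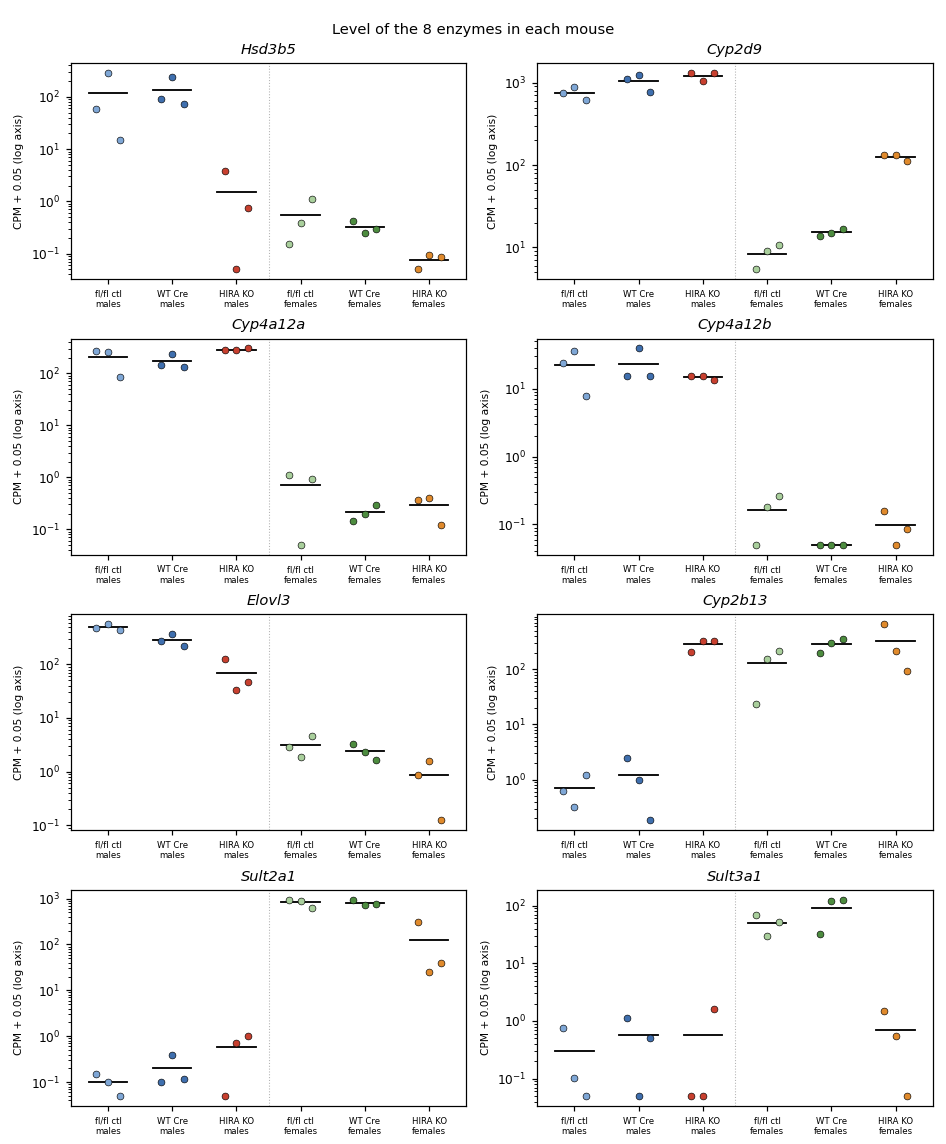
Level of each enzyme in each of the 18 mice as CPM plus 0.05 on a log axis, with 1 point per mouse, 1 column per group of 3 mice, and a bar at the group mean. Cyp2b13 in HIRA KO males lies with the females, Cyp2d9 in HIRA KO females lies between control females and males, and Sult2a1 and Sult3a1 in HIRA KO females lie below every control female.

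HIRA KO males were compared with control males to ask which parts of the male programme moved. Of the 8 enzymes, 3 were called, with Cyp2b13 higher and Hsd3b5 and Elovl3 lower, while 13.9% of all genes tested were called in this comparison. Hsd3b5 had 63, 0 and 14 counts in the HIRA KO males, or 3.71, 0 and 0.709 CPM. In the HIRA fl/fl AAV ctl males it was at 58.2, 288 and 14.7 CPM and in the WT AAV Tbg-Cre males at 89.8, 235 and 74.6 CPM. The groups did not overlap, and the mean of HIRA KO males was 1.16% of that of control males. This gave a log2 fold change of −6.48 (SE 0.94, adjusted p = 8.85e-05 in edgeR), and −6.13 without the library labelled HIRA KO male replicate 3 (adjusted p = 0.000757). With voom and sample quality weights Hsd3b5 was not called (log2 fold change −8.68, adjusted p = 0.488).

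Elovl3 was at 124, 32.8 and 47.2 CPM in the HIRA KO males. It was at 472, 566 and 447 CPM in HIRA fl/fl AAV ctl males and at 269, 362 and 218 CPM in WT AAV Tbg-Cre males, so that every HIRA KO male lay below every control male. Its log2 fold change was −2.52 (SE 0.45, adjusted p = 0.000696 in edgeR), and −2.3 without HIRA KO male 3 (adjusted p = 0.00466). HIRA KO males kept 17.5% of the control male mean, and their lowest value was above the highest control female (4.53 CPM).

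Cyp2b13 was close to absent from control males, with 2 to 47 counts or 0.133 to 2.43 CPM (median 0.745). In the HIRA KO males it was at 202, 325 and 320 CPM. Control females were at 23.8, 153 and 217 CPM in HIRA fl/fl AAV ctl and at 193, 303 and 348 CPM in WT AAV Tbg-Cre. All 3 HIRA KO males were therefore inside the range of control females, and their mean was 137% of the control female mean. The log2 fold change over control males was 8.23 (SE 0.70, adjusted p = 3.11e-07 in edgeR), and 8.14 without HIRA KO male 3 (adjusted p = 8.08e-07).

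The other 5 enzymes were not called in males. Cyp2d9 was at 1313, 1040 and 1317 CPM in HIRA KO males and between 619 and 1234 CPM (median 833) in control males, with a log2 fold change of 0.45 (SE 0.24, adjusted p = 0.171 in edgeR), and 0.41 without HIRA KO male 3 (adjusted p = 0.293). Cyp4a12a was at 281, 279 and 302 CPM in HIRA KO males, above the 85.5 to 274 CPM of control males, but the log2 fold change of 0.60 had an SE of 0.37 (adjusted p = 0.227 in edgeR), and was 0.58 without HIRA KO male 3 (adjusted p = 0.32). Cyp4a12b was at 15.5, 15.5 and 13.4 CPM, inside the range of 7.67 to 39.1 CPM of control males (log2 fold change −0.63, SE 0.41, adjusted p = 0.263 in edgeR, and −0.55 with adjusted p = 0.396 without HIRA KO male 3). The direction for Cyp4a12b turned with the deposited FPKM (log2 fold change 0.41, adjusted p = 0.461 in limma), so it cannot be stated. Cyp4a12b took 4.25% to 5.25% of the counts of the pair in HIRA KO males and 8.01% to 14.4% in control males, and 18.1% to 21.6% against 22.6% to 26.8% of the FPKM of the pair. Those shares were chosen after the values were seen and were not tested.

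The 2 sulphotransferases stayed far below the female level in HIRA KO males. Sult2a1 had 0, 13 and 19 counts in HIRA KO males and 0 to 7 counts in control males, a log2 fold change of 2.35 (SE 1.21, adjusted p = 0.157 in edgeR). DESeq2 called it (log2 fold change 2.47, adjusted p = 0.0381). Without HIRA KO male 3 the log2 fold change in edgeR was 1.69 (adjusted p = 0.43), and without HIRA KO female 1, which shares the fit, it was called (2.36, adjusted p = 0.0198). At most 0.962 CPM in HIRA KO males stood against at least 639 CPM in control females, and the mean was 0.0657% of theirs. Sult3a1 had 0, 0 and 31 counts in HIRA KO males and 0 to 21 counts in control males, with no call (log2 fold change 0.51, SE 1.15, adjusted p = 0.779 in edgeR). The 31 counts were all in the library labelled HIRA KO male replicate 3, and without it the log2 fold change was −5.99 (adjusted p = 0.22), a fitted value against 2 libraries at 0 and no bound.

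Xist, the RNA that coats the inactive X chromosome in females, also differed between the male groups. It was at 7.59, 9.40 and 13.5 CPM in HIRA KO males and between 0.487 and 1.83 CPM in control males (log2 fold change 3.28, SE 0.25, adjusted p = 6.01e-08 in edgeR). Against control females, HIRA KO males had 2.42% of the mean Xist level, 137% of the Cyp2b13 level and 0.0657% of the Sult2a1 level. The part of Xist-bearing RNA in the results was not tested.

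The cholangiocyte markers differed as well, and the summed level of Krt7, Krt19, Epcam, Sox9, Spp1 and Cftr was 175 to 252 CPM in HIRA KO males and 45.5 to 96.6 CPM in control males, with 4 of 6 called higher (3 of 6 without HIRA KO male 3), where 8.79% of all genes were. In females the sum was 192 to 282 CPM in HIRA KO and 76.2 to 186 CPM in controls, with 2 of 6 called higher (1.6% of all genes). The summed hepatocyte markers (Alb, Apoa2, Ttr, Trf, Ass1, Cps1, Tat and Fgb) were at 141400 to 182700 CPM in HIRA KO males and 141000 to 169600 CPM in control males, and of the 8 only Fgb was called, lower (log2 fold change −1.17, adjusted p = 0.00028 in edgeR). In females they were at 172300 to 236600 CPM in HIRA KO and 136100 to 171100 CPM in controls, with none called by edgeR, DESeq2 or voom and 5 higher and 2 lower at an unadjusted p below 0.05 in edgeR. Of 6 stellate cell markers Col1a1 was called higher in males (1.24) and females (1.90), and their sum was 339 to 468 CPM in HIRA KO males against 246 to 396 CPM in control males, and 450 to 673 CPM against 350 to 432 CPM in females. Of 6 lymphoid and neutrophil markers Nkg7 was called higher in males (2.51), where the sum was 5.92 to 14.0 CPM against 2.56 to 8.33 CPM, while in females, with 15.5 to 22.7 against 4.39 to 23.9 CPM, edgeR and DESeq2 called 0, voom called 1 and edgeR counted 1 at an unadjusted p below 0.05. Of 6 endothelial markers edgeR called 0 in either sex (at an unadjusted p below 0.05 it counted 0 in males and 4 in females), and DESeq2 and voom called 1 in females. Of 6 Kupffer cell markers edgeR, DESeq2 and voom called 0 in either sex (at an unadjusted p below 0.05 edgeR counted 1 in males and 2 in females). The Kupffer sum was 143 to 202 CPM in HIRA KO males against 101 to 373 CPM in control males, and 160 to 243 against 281 to 360 CPM in females. Of 8 pericentral genes Rhbg was called higher in males (2.23) and Glul (−1.12) and Slc1a2 (−2.02) lower in females, and of 6 periportal genes Hal was called lower in males (−1.33). Over all genes 5.1% were called lower in HIRA KO males and 0.889% in HIRA KO females. The periportal sum was 2682 to 2988 CPM in HIRA KO males, below the 3903 to 5085 CPM of control males. The part of these markers in the results was not tested.

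HIRA KO females were compared with control females in the same way. Again 3 of the 8 enzymes were called, with the male-biased Cyp2d9 higher and the female-biased Sult2a1 and Sult3a1 lower, while 2.49% of all genes tested were called. Cyp2d9 was at 132, 132 and 113 CPM in HIRA KO females, against 5.35, 8.99 and 10.7 CPM in HIRA fl/fl AAV ctl females and 13.6, 15.1 and 16.8 CPM in WT AAV Tbg-Cre females. The HIRA KO females lay close together and far above every control female. Its log2 fold change was 3.42 (SE 0.24, adjusted p = 2.28e-08 in edgeR), and the HIRA KO female mean was 14% of the control male mean. The size of this change depended on the table used: edgeR's value is a 10.7-fold higher level, whereas in the deposited FPKM the means were 135 and 32.9, and the log2(FPKM + 1) fit gave a log2 fold change of 2.02 (adjusted p = 2.91e-05 in limma).

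Sult2a1 was at 302, 25.5 and 38.8 CPM in HIRA KO females. Control females were at 954, 902 and 639 CPM in HIRA fl/fl AAV ctl and at 947, 723 and 772 CPM in WT AAV Tbg-Cre. Every HIRA KO female lay below every control female, and HIRA KO female 1 was far above the other two HIRA KO females. The log2 fold change was −2.75 (SE 0.57, adjusted p = 0.0046 in edgeR), and −4.68 without HIRA KO female 1 (adjusted p = 8.38e-07).

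Sult3a1 was at 1.43, 0.489 and 0 CPM in HIRA KO females, or 27, 11 and 0 counts. It was at 70.1, 29.9 and 52.6 CPM in HIRA fl/fl AAV ctl females and at 31.6, 118 and 128 CPM in WT AAV Tbg-Cre females. The HIRA KO females were at 0.894% of the control female mean and their range overlapped that of control males (0 to 1.09 CPM). The log2 fold change was −6.93 (SE 0.96, adjusted p = 9.45e-05 in edgeR).

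Cyp2b13 was at 660, 216 and 91.2 CPM in HIRA KO females, spread around the control females (log2 fold change 0.64, SE 0.56, adjusted p = 0.65 in edgeR). HIRA KO female 1 was above every control female, and without it the log2 fold change was −0.43 (adjusted p = 0.833). This is the same mouse that kept the most Sult2a1. Elovl3 had 15, 35 and 2 counts in HIRA KO females and 32 to 106 counts in control females, and did not pass (log2 fold change −1.80, SE 0.58, adjusted p = 0.0742 in edgeR), although the CPM ranges did not overlap. DESeq2 called it lower (log2 fold change −1.74, adjusted p = 0.0343), as did edgeR with no filter on low counts (adjusted p = 0.0127). The value and the call moved with single mice: the log2 fold change was −2.82 without HIRA KO female 2, which was called (adjusted p = 0.042), and −1.18 without HIRA KO female 3 (adjusted p = 0.337), and leaving out HIRA KO male 1 or 2 also gave a call (adjusted p = 0.0297 and 0.0486). Hsd3b5 had 2 counts over the 3 HIRA KO females and 52 over the 6 control females, a ratio of 0.0738 per total count (exact 95% interval 0.00871 to 0.28, counting error only). Its adjusted p in edgeR was 0.443, so no call was made, whereas a separate edgeR fit of the females called it lower (log2 fold change −3.55, adjusted p = 0.0401). Cyp4a12a with 2 to 8 counts and Cyp4a12b with 0 to 2 counts in HIRA KO females stood beside 0 to 21 and 0 to 5 counts in control females, and neither was called.

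Each control type was also used alone. In males 3 of the 8 enzymes were called against HIRA fl/fl AAV ctl (6.87% of all genes) and 3 against WT AAV Tbg-Cre (5.32%), in both cases Hsd3b5, Elovl3 and Cyp2b13. The log2 fold change of Cyp2b13 was 8.70 against the former and 7.86 against the latter, that of Hsd3b5 −6.40 and −6.55, and that of Elovl3 −2.86 and −2.06. In females 3 were called against HIRA fl/fl AAV ctl (1.47% of all genes) and 3 against WT AAV Tbg-Cre (2.21%), in both cases Cyp2d9, Sult2a1 and Sult3a1. These pairs of comparisons share the HIRA KO mice. The call of Sult2a1 in females against a single control type was not stable. It was lost against both with DESeq2 and with log2(FPKM + 0.1), against HIRA fl/fl AAV ctl without HIRA KO female 2, HIRA KO female 3 or HIRA fl/fl AAV ctl female 1, and against WT AAV Tbg-Cre without HIRA KO female 3. The adjusted p reached 0.0902 and 0.0635 over mice left out. In addition, with voom Hsd3b5 was not called in males against either and Cyp2b13 not against HIRA fl/fl AAV ctl, and with log2(FPKM + 0.1) Elovl3 was not called in males against WT AAV Tbg-Cre (log2 fold change −2.11, adjusted p = 0.0684). The control types themselves were compared to see the effect of the floxed alleles and of Cre. With WT AAV Tbg-Cre set against the floxed controls none of the 8 was called by edgeR in males (0% of all genes) or in females (0.00425%). At an unadjusted p below 0.05 edgeR and DESeq2 each counted 1 in males and 3 in females, and voom 2 and 3, and neither DESeq2 nor voom called any.

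**Figure D2:**
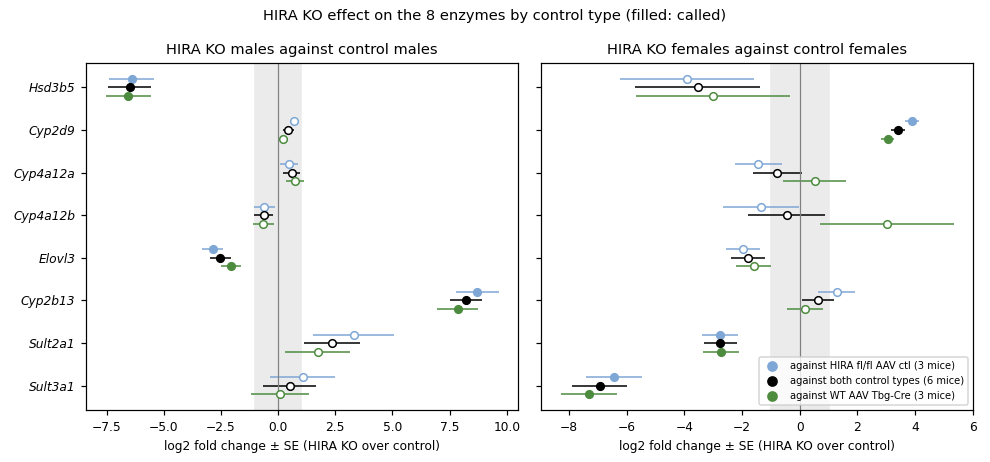
Log2 fold change of HIRA KO over control for each enzyme in males (left) and females (right), with the SE as bars, against each control type alone (3 mice) and both pooled (6 mice). Filled points were called. The 3 called genes of each sex are filled against both control types.

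The difference between the sexes was then asked within HIRA KO livers. Of the 8 enzymes, 5 were called between HIRA KO males and HIRA KO females, against 4.24% of all genes. Cyp2d9, Cyp4a12a, Cyp4a12b and Elovl3 were still higher in males and Sult2a1 still higher in females. With voom Sult2a1 was not called (log2 fold change −7.18, adjusted p = 0.445). The log2 fold change of males over females was 3.28 for Cyp2d9 (SE 0.31), which is smaller than the 6.25 in controls, and −7.75 for Sult2a1 (SE 0.84), against −12.85 in controls. With log2(FPKM + 1) the values of Cyp2d9 were closer together, 2.90 in HIRA KO and 4.42 in controls. Cyp2b13 had −0.19 (SE 0.66, adjusted p = 0.896 in edgeR), a direction that turned with FPKM and voom, with 202 to 325 CPM in males and 91.2 to 660 CPM in females. Sult3a1 had −0.10 (SE 1.23, adjusted p = 0.985), with both sexes at 1.57 CPM or less. Hsd3b5 had 5.34 (SE 1.90, adjusted p = 0.0968), resting on 77 counts in males and 2 in females. It was called with DESeq2 (5.78, adjusted p = 0.00654) and in edgeR with no filter on low counts (5.34, adjusted p = 0.0269) or without HIRA KO male 2 (5.97, adjusted p = 0.0403), but was 3.39 without HIRA KO male 1 (adjusted p = 0.397). Without HIRA KO male 3 the same 5 enzymes were called.

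The change in sex difference equals the HIRA KO effect in males minus that in females, and was tested as an interaction. Of the 8 enzymes, 3 were called, against 1.46% of all genes. The difference was −2.96 for Cyp2d9 (SE 0.36, adjusted p = 0.000228 in edgeR), 7.58 for Cyp2b13 (SE 0.98, adjusted p = 0.000557) and 7.43 for Sult3a1 (SE 1.60, adjusted p = 0.0215). With log2(FPKM + 1) that of Cyp2d9 was −1.51 (adjusted p = 0.0202 in limma). With voom neither Cyp2b13 (8.93, adjusted p = 0.0828) nor Sult3a1 (8.00, adjusted p = 0.617) was called. In edgeR the call of Sult3a1 depended on the library labelled HIRA KO male replicate 3: without it the difference was 0.96 (adjusted p = 0.986). That 0.96 rests on a fitted male value of −5.99, from libraries at 0 counts, and is no bound. The call was also lost without HIRA KO female 2 (7.34, adjusted p = 0.0504). With log2(FPKM + 1) both Sult3a1 (4.98, adjusted p = 0.000617 in limma) and Cyp2b13 (5.91, adjusted p = 0.00705) were called. Sult2a1 was just short of the threshold with 5.10 (SE 1.32, adjusted p = 0.052), and its call depended on the fit. It was called with DESeq2 (5.22, adjusted p = 0.00276), with other normalization or filters, with FPKM and without HIRA KO male 1, HIRA KO female 1 or WT AAV Tbg-Cre male 2, but not with voom (5.53, adjusted p = 0.682). For Hsd3b5 and Elovl3, called lower in males only, the difference between the sexes was not called (adjusted p = 0.823 and 0.663). In the log2(FPKM + 1) fit that of Hsd3b5 was called (−4.62, adjusted p = 0.0351 in limma). A difference in the HIRA KO effect between males and females is therefore not shown for Elovl3, and for Hsd3b5 the call depended on the fit.

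**Figure D3:**
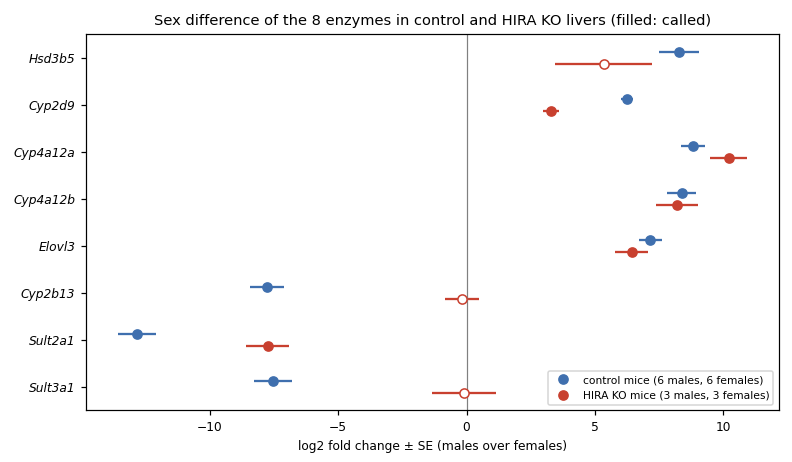
Log2 fold change of males over females for each enzyme, with the SE as bars, in control mice and in HIRA KO mice. Filled points were called. All 8 are called in controls, and Cyp2b13 and Sult3a1 lie near 0 in HIRA KO mice.

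For the growth hormone pathway itself, whose activity was not measured, RNA levels were compared for a list of 22 genes of its signalling and outputs. Of these 1, Socs2, was called lower in HIRA KO males (5.1% of all genes were called lower there) and 0 in females by edgeR. At an unadjusted p below 0.05 edgeR counted 11 lower and 0 higher in males, and 5 lower and 0 higher in females. Over all genes 19.3% were lower at that p in males and 8.63% in females. DESeq2 called 1 in males and 0 in females, and voom 0 in both. The median log2 fold change of the list was −0.41 in males and −0.21 in females, beside −0.04 and 0 over all genes. Ghr, the receptor, was at 295, 356 and 331 CPM in HIRA KO males and between 557 and 643 CPM in control males. It was at 400, 307 and 312 CPM in HIRA KO females and between 486 and 1137 CPM in control females. Both groups of HIRA KO mice lay below all controls of their sex, with a log2 fold change of −0.89 in each (SE 0.21 in both, edgeR adjusted p = 0.00591 for males and 0.0133 for females), which is below the fold threshold for a call. Stat5b had a log2 fold change of −0.65 (SE 0.16) in males and −0.62 (SE 0.16) in females, with adjusted p = 0.00744 and 0.0212. Igf1, the main secreted target of growth hormone, had −0.94 (SE 0.15) in males and −0.69 (SE 0.15) in females, with adjusted p = 0.000196 and 0.00501. Jak2 had −0.03 in males and −0.31 in females (adjusted p = 0.928 and 0.31).

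Socs2 and Cish are feedback inhibitors that growth hormone induces through STAT5. Socs2 was at 3.18, 13.6 and 8.10 CPM in HIRA KO males and between 4.11 and 68.2 CPM (median 26.9) in control males, with overlapping ranges. Its log2 fold change was −1.94 (SE 0.69, adjusted p = 0.0482 in edgeR), and −1.91 without HIRA KO male 3, which was not called (adjusted p = 0.103). The 1 gene of the list called without that mouse was Socs3, another feedback inhibitor. Cish had −1.68 (SE 0.68) and −1.46 (SE 0.67) in males and females and was not called (adjusted p = 0.0757 and 0.258). Both were uneven among control males. The control males numbered 2 in each control type had the highest Hsd3b5 (288 and 235 CPM), and also the highest Socs2 (68.2 and 60.1 CPM), Cish (50.3 and 53.4 CPM) and Cyp4a12b (36.4 and 39.1 CPM). HIRA fl/fl AAV ctl male 3, with the lowest Hsd3b5 (14.7 CPM) among control males, had 6.32 CPM of Socs2, 3.28 CPM of Cish and 7.67 CPM of Cyp4a12b. This is a description of single mice, chosen after the values were seen.

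**Figure D4:**
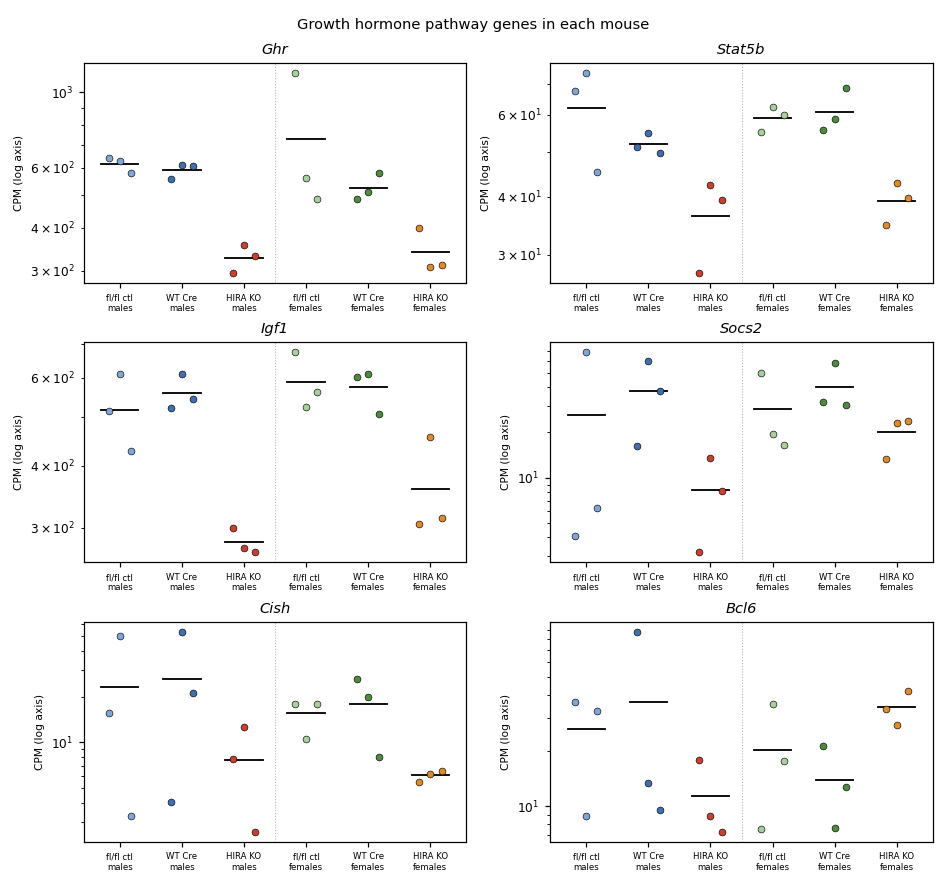
Level of 6 growth hormone pathway genes in each mouse as CPM on a log axis, with 1 point per mouse and a bar at the mean of each group of 3. Ghr and Igf1 are below all controls of the same sex in every HIRA KO mouse, while Socs2, Cish and Bcl6 spread widely within groups.

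Of 25 liver transcription factors, 2 were called higher and 1 lower in HIRA KO males, and 2 lower in HIRA KO females. Over all genes 8.79% were called higher and 5.1% lower in males and 0.889% lower in females, so the counts in males were near the share of all genes. Nr1i3, the nuclear receptor CAR that activates Cyp2b genes, was at 44.2, 3.20 and 7.65 CPM in HIRA KO males and between 47.0 and 66.2 CPM in control males. It was at 9.59, 6.93 and 6.02 CPM in HIRA KO females and between 94.0 and 223 CPM in control females. It was thus lower in every HIRA KO mouse of either sex, with a log2 fold change of −1.67 (SE 0.49, edgeR adjusted p = 0.0197) in males and −4.38 (SE 0.57, adjusted p = 4.92e-05) in females. In males it was not called without HIRA KO male 3 (−1.29, adjusted p = 0.0766). Trim24, a cofactor that was higher in control females (65.9 to 94.0 CPM) than in control males (16.0 to 26.9 CPM), was at 38.1 to 50.6 CPM in HIRA KO males (log2 fold change 1.05, SE 0.15, adjusted p = 5.97e-05). Nr2f1, a nuclear receptor, was higher in males (2.46, adjusted p = 0.013) and Ppara, the receptor for fatty acids, lower in females (−1.08, adjusted p = 0.0174). Bcl6, the male repressor, had −1.48 and 1.01 (adjusted p = 0.0827 and 0.365). Cux2, the female one, was at 0.0588 to 1.47 CPM in HIRA KO males, within the range of control males and far from the 51.7 to 101 CPM of control females.

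Among 13 tested genes of steroid hormone action, 2 were called in males and 1 in females, where 13.9% and 2.49% of all genes were called. The count in males was near the share of all genes. Hsd11b1, which regenerates active glucocorticoid, was lower in both sexes (log2 fold change −1.23 with adjusted p = 1.74e-05 in males, −1.12 with 6.98e-05 in females). Sult1e1, the oestrogen sulphotransferase, was at 2.48 to 4.32 CPM in HIRA KO males and 0 to 0.308 CPM in control males (4.61, adjusted p = 0.00366). Esr1, the oestrogen receptor, had −0.50 and −0.37 (adjusted p = 0.0558 and 0.301). Prlr, the prolactin receptor, was not called either (adjusted p = 0.89 in males and 0.0801 in females).

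Other sex-biased liver genes were counted from lists of 20 male-biased and 34 female-biased genes, all of them tested. The lists were chosen with earlier results of these data known, so their shares beside those of all genes are a description only. In control livers 18 of the 20 were called higher in males and 30 of the 34 higher in females. In HIRA KO males 7 of the 20 male-biased genes were called lower and 0 higher, where 5.1% of all genes were called lower and 8.79% higher, and their median log2 fold change was −1.20. At an unadjusted p below 0.05 edgeR counted 11 lower and 0 higher (19.3% and 18.7% of all genes), and DESeq2 and voom called 0 higher (6.55% and 1.62% of all genes). Of the 34 female-biased genes 11 were called higher and 2 (Cyp2c40 and Nipal1) lower, with a median of 0.55. Without the library labelled HIRA KO male replicate 3 the called genes were 5 of the male-biased and 14 of the female-biased list. With voom they were 1 and 7, where voom called 0.863% of all genes lower and 1.62% higher. Slco1a1, a male transporter of organic anions, was at 22.2 to 103 CPM in HIRA KO males and 212 to 562 CPM in control males (log2 fold change −2.99, SE 0.49, adjusted p = 0.000319). Lower were also Serpina1e (−3.53), Susd4 (−2.62), Selenbp2 (−2.58), Egfr, the receptor for epidermal growth factor (−2.16), and Serpina12 (−1.73). Of these Serpina1e (−3.10, adjusted p = 0.0696) and Selenbp2 (−2.15, adjusted p = 0.125) were not called without HIRA KO male 3. Higher were A1bg (4.74), Sult3a2 (4.32), Cyp2b9 (3.96), Hao2 (3.40) and Slc22a26 (3.31). Their levels in HIRA KO males differed from the female level to unequal degrees. Cyp2b9, the neighbour of Cyp2b13, was at 211 to 503 CPM in HIRA KO males and 351 to 687 CPM in control females. A1bg was at 1.18 to 31.9 CPM in HIRA KO males and 713 to 7844 CPM in control females.

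In HIRA KO females 6 of the 34 female-biased genes were called lower and 0 higher, where 0.889% of all genes were called lower and 1.6% higher, and their median log2 fold change was −0.90. At an unadjusted p below 0.05 edgeR counted 16 lower and 0 higher (8.63% and 8.8% of all genes). DESeq2 called 5 lower and 0 higher (1.19% and 2.03% of all genes) and voom 15 lower and 1 higher (1.84% and 4.07% of all genes). The 6 genes were Acot4, Cyp3a16, Cyp3a41a, Cyp3a44 (−3.59, SE 0.71, adjusted p = 0.00334), Sult2a2 and Sult3a2 (−4.12, SE 1.16, adjusted p = 0.0382). This count was unstable to single mice: it was 10 without HIRA KO female 1 and 3 without either of the other two. Of the male-biased genes 1 (C6) was called higher and 2 (Sdr9c7 and Serpina12) lower, with a median of 0.04. That count of 3 became 5 without HIRA KO female 1 and 1 without HIRA KO female 3. The 7 male-biased genes called in males became 4 without HIRA KO male 2. In the interaction 10 of the 34 female-biased genes were called, all with a larger log2 fold change in males, as were 0.459% of all genes. Of the 20 male-biased genes 2 were called (C6 and Cyp2u1), both with a larger one in females, as were 1% of all genes.

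**Figure D5:**
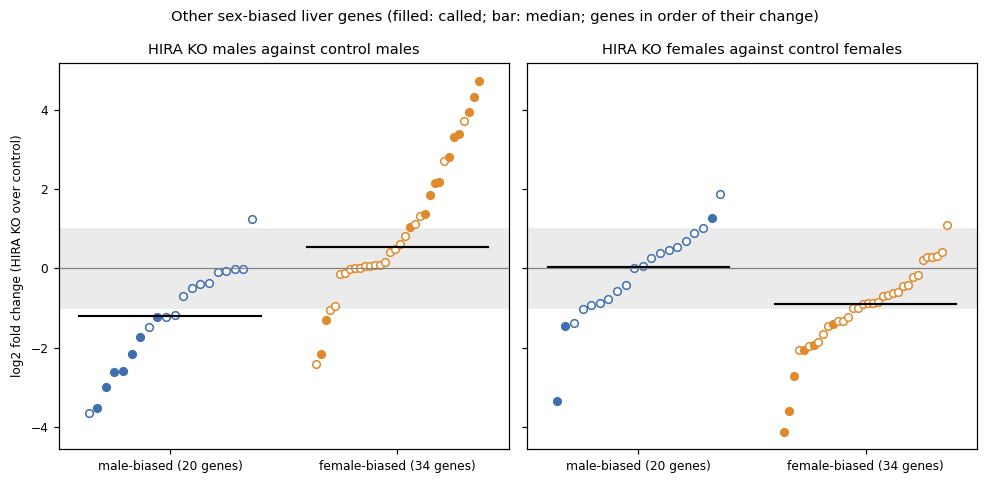
Log2 fold change of HIRA KO over control in males (left) and females (right) for 20 other male-biased and 34 other female-biased genes, 1 point per gene in order of its change, with a bar at the median. Filled points were called. In males the male-biased genes lie mostly below 0 (median −1.20) and in females the female-biased genes do (median −0.90).

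The close relatives of the 8 enzymes were read from a list of 40 paralogs. Of the 31 tested, 6 were called higher and 2 lower in males, and 2 higher and 4 lower in females. Over all genes 8.79% were called higher and 5.1% lower in males, near the share of paralogs called lower there, and 1.6% higher and 0.889% lower in females. Sult2a8, a sulphotransferase that was higher in control males, was at 106 to 284 CPM in HIRA KO males and 833 to 1040 CPM in control males (log2 fold change −2.39, SE 0.34, adjusted p = 8.1e-05). It was at 4.97 to 22.7 CPM in HIRA KO females and 264 to 418 CPM in control females (−4.65, SE 0.40, adjusted p = 1.99e-07). Sult2a3 was at 0.882, 16.9 and 2.53 CPM in HIRA KO males and at most 0.267 CPM in control males (6.18, SE 1.35, adjusted p = 0.00328). Sult2a7 fell in females (−6.69, SE 1.15, adjusted p = 0.000915). Hsd3b1, a steroid dehydrogenase known from gonads and adrenal, was higher in both sexes (log2 fold change 6.62 with adjusted p = 0.00666 in males, 4.42 with 0.0066 in females). Its level in HIRA KO mice was 0 to 0.911 CPM in males and 4.98 to 10.3 CPM in females. The 6 control males were all at 0 for it, so its fitted value in males is no bound.

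The genes most like each enzyme were found by Pearson's correlation of log2 CPM over the 18 mice, among 12856 other genes with a mean of at least 1 CPM. The points share sex and genotype groups, so the values describe the pattern only. For Cyp4a12a the closest were the Y-linked Eif2s3y (r = 0.988) and Ddx3y (0.986), and for Cyp4a12b Kdm5d (0.980) and Ddx3y (0.977). For Elovl3 they were Mup11 and Mup21 (both 0.966), for Cyp2d9 Nat8 (0.971) and Pard3b (0.965), and for Hsd3b5 Ttc39c (0.955) and Scp2 (0.947). For Sult2a1 they were Sult2a2 (0.987) and Cyp3a16 (0.983), for Cyp2b13 Rtn4 (0.933) and Pcp4l1 (0.919), and for Sult3a1 9030619P08Rik (0.921) and Fmo1 (0.895). The highest r was lowest for Sult3a1 and Cyp2b13.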

How the data were processed

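Whole-liver poly-A RNA-seq of 18 mice was analysed. The authors aligned trimmed reads to mm10 with STAR and deposited a table of raw counts per gene and a table of FPKM. The study's methods name HOMER for the counts, whereas the submitters' processing notes list HTSeq and Cufflinks, so the counter is uncertain, and its version and use of strand are not given in the sources used here. Blank FPKM cells (584711 of 997578 deposited) were taken as 0, although the count table lists reads for 11808 of them.

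Genes with at least 10 counts over all mice (23512) were fitted with edgeR 4.0.16 (R 4.3.3, TMM, quasi-likelihood test, 4 group means: HIRA KO and both control types pooled, per sex), and each control type alone with 6 group means. P-values were Benjamini-Hochberg adjusted over all genes tested, and calls needed adjusted p below 0.05 and an absolute log2 fold change above 1. Alternatives used DESeq2 1.42.0 and limma 3.58.1 (voom with quality weights, and log2 FPKM), other filters and normalization, a replicate block, separate fits per sex, and leaving out each mouse. The fits were tested on simulated data, where a larger share of DESeq2's calls than of edgeR's was false. DESeq2 also recovered more of the 200 genes set to differ, 80.0% against 74.5% in males and 82.0% against 75.0% in females. Whether this holds for enzymes at low counts was not tested. Tables and figures were made with Python 3.11.15, pandas 2.3.3, numpy 2.4.6 and matplotlib 3.10.9.

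The members and lists were chosen with earlier results of these data known. Named were the 8 enzymes, set growth hormone and steroid receptor genes, and per list up to 6 called genes of largest change whose higher group averaged 1 CPM or more. Genes named only with a count were chosen after their values were seen. Replicates differed by more than sampling noise (chi-square per gene 19.0 to 84.5). Intervals cover counting error only. Of the gene IDs 54587 of 55421 matched GENCODE M21, and 0 columns were unmatched.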

Additional observations from a re-analysis of the deposited data

Results flagged for a closer look

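Among the 6 control females, Hsd3b5 was at 1.07 CPM in HIRA fl/fl AAV ctl female 3, whose gap to the next mouse was 0.719 of the whole range (critical value 0.625). Among the 6 control males, Sult2a1 was at 0.341 CPM in WT AAV Tbg-Cre male 2, with a gap of 0.699 of the range. Of 16 such groups 2 stood out in this way, and chance gives about 1 in 20. Both values are low levels in the sex that expresses little of the gene.

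The interaction test of edgeR called a different HIRA KO effect in males and females for 3 enzymes. The log2 fold change in males minus that in females was −2.96 for Cyp2d9, 7.58 for Cyp2b13 and 7.43 for Sult3a1. The call of Sult3a1 was lost without the library labelled HIRA KO male replicate 3 (0.96, adjusted p = 0.986), without HIRA KO female 2 (7.34, adjusted p = 0.0504) and with voom (8.00, adjusted p = 0.617), and that of Cyp2b13 with voom (8.93, adjusted p = 0.0828). With log2(FPKM + 1) both were called (4.98, adjusted p = 0.000617 for Sult3a1, and 5.91, adjusted p = 0.00705 for Cyp2b13, in limma).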

How the results depend on the processing

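Over 12 alternatives and 18 mice left out in turn, the count of enzymes called was between 2 and 4 in males and between 3 and 4 in females. The cause of the changes below was not tested. Called enzymes in the interaction (3) became 1 with voom and 5 with log2(FPKM + 1), filtered or not. Against HIRA fl/fl AAV ctl in males they became 1 with voom (from 3). Without a count filter they became 7 against HIRA fl/fl AAV ctl and 5 against WT AAV Tbg-Cre in females (from 3), and 2 between control types in females (from 0). Male-biased genes called in males (7) became 1 with voom and 4 with either FPKM pseudocount, and in females (3) 5 without a fold threshold. Female-biased genes called in males (13) became 7 with voom, 5 with log2(FPKM + 1), and 8 with a pseudocount of 0.1, with filtered FPKM and with separate fits per sex. In females (6) they became 11 without a filter, 16 with voom, 11 with log2(FPKM + 1), filtered or not, 10 with a pseudocount of 0.1 and 13 with separate fits. Over mice left out, male-biased calls were 4 to 8 in males and 1 to 5 in females, and female-biased calls 9 to 14 and 3 to 10.

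Directions that turned belonged to values that were not called. With FPKM, Cyp4a12b had 0.41 and 0.43 in males against all controls, 0.4 and 0.43 against HIRA fl/fl AAV ctl, 0.43 and 0.44 against WT AAV Tbg-Cre, and −0.02 between male controls. In females it had 0.1 and 0.6 against all controls, 0.05 and 0.26 against HIRA fl/fl AAV ctl, 0.85 with 6 group means, and 0.31 in the interaction. Cyp2b13 between HIRA KO sexes had 0.53 with voom and 0.09 and 0.1 with FPKM, between male control types −0.04, −0.07 and −0.16, and against WT AAV Tbg-Cre in females −0.54 and −0.11. Sult2a1 between female control types had 0.01 with voom. Sult3a1 in males had −0.54 with voom and −0.3 and −1.09 with FPKM, −0.6, −0.21 and −0.74 against HIRA fl/fl AAV ctl, and −0.75, −0.39 and −1.44 against WT AAV Tbg-Cre.

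With mice left out in turn, directions turned for Hsd3b5 between control types (−0.55 to 1.87 in males, −1.33 to 0.24 in females), for Cyp4a12b in females (−1.39 to 0.52), in the interaction (−1.14 to 0.78) and between male controls (−0.57 to 0.55), and for Elovl3 in the interaction (−1.46 to 0.31) and between female controls (−0.68 to 0.03). They turned for Cyp2b13 in females (−0.43 to 1.09, and −0.88 to 0.64 against WT AAV Tbg-Cre), between HIRA KO sexes (−0.63 to 0.92) and between male controls (−0.23 to 1.53), and for Sult2a1 between female controls (−0.19 to 0.09). For Sult3a1 the ranges were −5.99 to 1.2 in males, −5.42 to 4.14 and −6.41 to 1.42 against each control type, −6.57 to 1.29 between HIRA KO sexes and −0.33 to 4.04 between male controls.

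Over all genes, mice with the same replicate number did not deviate together (45 pairs, correlations −0.062 to 0.0975). Such correlations cannot exclude a factor shared by mice of the same number that acts on few genes. With the replicate block the interaction of Sult2a1 was called (5.72, adjusted p = 0.0304 in edgeR), making 4 enzymes, and the calls of the other enzymes did not change. The block gave 1135 higher and 1030 lower genes in males, against 2066 and 1199 without it, and 347 and 212 in females, against 376 and 209. With voom the calls over all genes were fewer in males (382 higher and 203 lower) and more in females (956 and 432). Log2(FPKM + 1) moved the median of all genes by 0.108 in males.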
